A study of Mus musculus with 6 samples.

Results

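The genes described here are those of microglia, the resident macrophages of the brain, and of the complement system that microglia produce and sense, measured in bulk RNA of the mouse subventricular zone (SVZ), the stem cell niche beside the lateral ventricle. A list of 48 genes was taken by symbol from the 18614 genes of the deposited table, and all 48 were found. They were divided by role into 15 genes of homeostatic microglial identity, 7 of complement and its receptors, 6 of ITAM and Fc receptor signalling, 5 of lysosome and phagocytosis, 6 of leukocyte and myeloid identity, 8 of activation, and Mrc1 of border macrophages. Of these, 46 passed the filter on low counts and were tested among 15126 genes. Cst7 and Clec7a, both activation genes, did not pass it.

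The study compared Zhx2+/+ mice (WT) with Zhx2Δ/Δ mice (KO), with 3 libraries of total SVZ RNA in each group. Sex and age are not given in the labels, which also do not say whether each library came from its own animal. The spread behind every p-value is therefore that of the libraries and may be technical. By title all 3 KO libraries are of ZHX2, but the genotype tag is ZHX3 KO for KO 2 and ZHX4 KO for KO 3. Zhx2 itself stood at 39.8, 40.5 and 38.2 CPM (counts scaled to library size) in the 3 WT libraries, in the order of their numbers as throughout, and at 67.1, 57.8 and 56.3 CPM in those labelled KO, so it was not lower under the KO label (log2 fold change 0.61, SE 0.10, adjusted p = 0.163 in edgeR). Directions below are therefore by label: higher or lower in the KO-labelled libraries than in WT.

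Microglia depend on signalling through the receptor Csf1r and on TGF-β for their identity, and in the healthy brain they carry a set of sensing receptors such as P2ry12 and Cx3cr1. When they meet debris or damage, the receptor Trem2 and its adaptor Tyrobp pass a signal through an ITAM motif, homeostatic genes are turned down, and genes such as Apoe, Lpl and Cst7 are turned up. Complement component C1q, made in the brain mainly by microglia, is assembled from equal numbers of 3 chains and tags synapses and debris for uptake through complement receptors.

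Library totals lay between 17037152 and 17685906 estimated counts, so 3 counts, the floor for a gene that was not seen, correspond to 0.17 to 0.176 CPM (counting error only). The libraries differed in their content of other tissue. The summed level of 15 choroid plexus markers was 5676 to 23920 CPM in WT and 487 to 880 CPM in KO-labelled libraries, and that of 10 ependymal markers was 182 to 260 CPM against 85.5 to 128 CPM. The groups did not overlap for either list, so a difference between genotypes cannot be told apart from a difference in this content. WT 1 stood apart by a low sum of 10 striatal neuron markers, 566 CPM against 2420 to 8420 CPM in the other 5 libraries. KO 2 stood apart by blood cell markers: 9 genes of monocytes and neutrophils summed to 10.9 CPM there and to 0.411 to 1.14 CPM elsewhere.

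**Figure D1:**
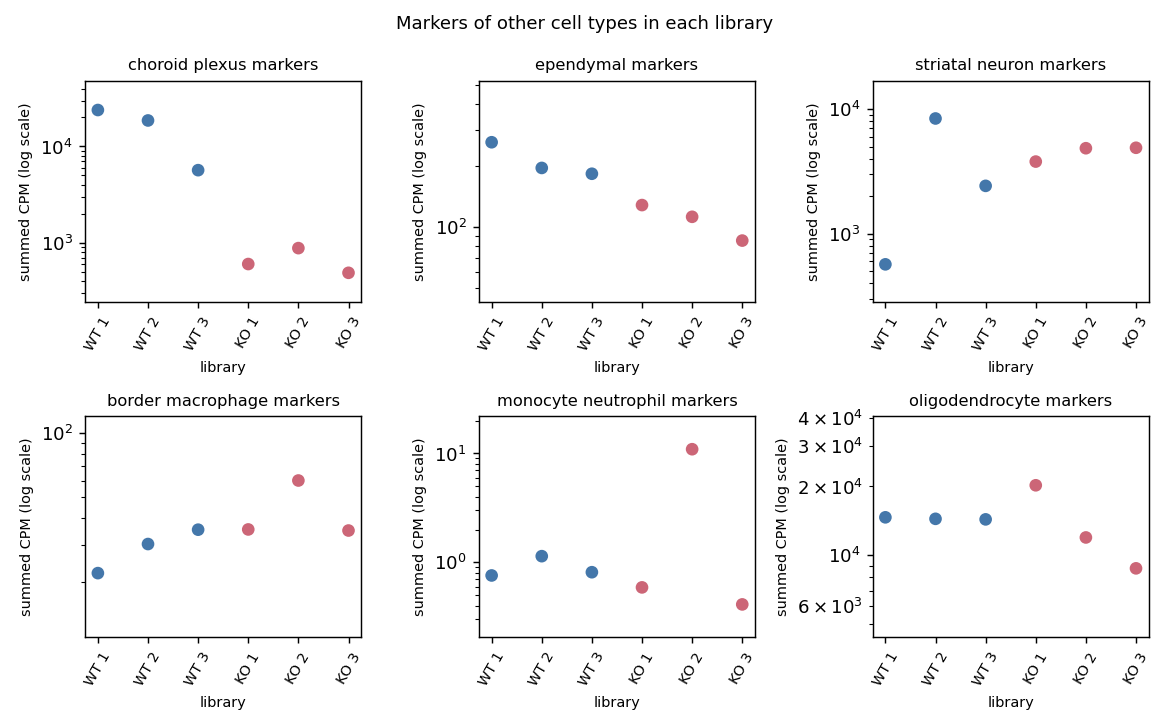
Summed level in CPM (log axis) of marker lists of other cell types, 1 point per library, WT in blue and KO-labelled libraries in red. Choroid plexus and ependymal sums separate the groups, striatal sums are lowest in WT 1 (566 CPM), and the monocyte and neutrophil sum is highest in KO 2 (10.9 CPM).

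Most microglial and complement genes stood slightly higher in the KO-labelled libraries, and none passed the test. In edgeR, 0 of 46 members had an adjusted p under 0.05, as did 0% of all genes tested. The lowest adjusted p was that of C1qc, 0.362 in edgeR, 0.203 in DESeq2 and 0.419 in limma-voom. DESeq2 called 1.86% of the 16740 genes to which it gave an adjusted p, and no member. Log2 fold changes were above 0 for 39 of 46 members, against 53.4% of all genes, with a median of 0.24 against 0.02 for all genes. They ran from -0.47 for Ctsd to 0.78 for Slc2a5. At an unadjusted p under 0.05 in edgeR, 9 members were higher (19.6% of 46, against 2.68% of all genes in that direction) and 1 was lower (against 6.39%). The 3 KO-labelled libraries lay above the 3 WT libraries in 10 members (21.7%, against 8% of all genes) and below them in 0 (against 8.74%). In bulk RNA, more microglia and more RNA of these genes per microglial cell cannot be told apart. Markers of cells that share some of these genes also stood higher: 8 of 10 astrocyte markers were above 0 (median log2 fold change 0.21, 2 higher at an unadjusted p under 0.05), as were all 7 border macrophage markers tested, Mrc1 among them (median 0.58, 2 higher at that p). Of other cells, all 10 striatal neuron markers were above 0 too (median 0.27, 0 higher at that p). Of the endothelial and oligodendrocyte markers 4 of 10 and 1 of 10 were above 0, and of the choroid plexus and ependymal markers 0. The part of any of these cells in the members' values was not tested.

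These counts depended on single libraries. Without WT 1 the median log2 fold change of the members was 0.14 and 3 members were higher at an unadjusted p under 0.05. Without KO 2 the median was 0.18 and again 3 members were higher at that p. It was 5 members without WT 3 and 4 without KO 1, and over these 4 removals the share of all genes at that p was between 0.87% and 2.51%. WT 1 was the lowest of all 6 libraries in 29 of 46 members (63.0%, against 24.8% of all genes), and KO 2 was the highest in 26 (56.5%, against 19.5%). The order of WT 1 below WT 3 below WT 2, which the striatal markers also had, held in 10 of 15 homeostatic genes, in 2 of 7 complement genes and in 26.3% of all genes; the part of neuronal tissue in the homeostatic values was not tested.

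**Figure D2:**
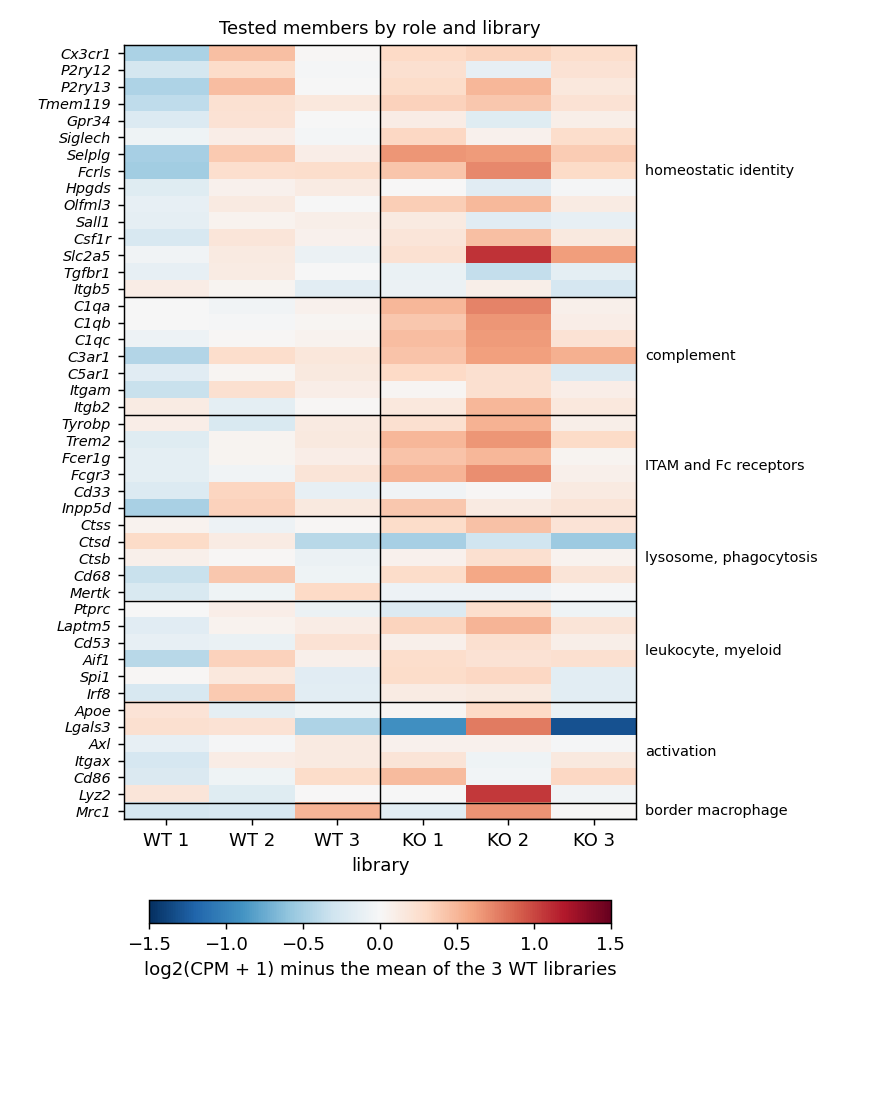
Each row is 1 of the 46 tested members and each column 1 library; the colour gives log2(CPM + 1) minus the mean of the 3 WT libraries. WT 1 is pale to blue over most homeostatic rows, KO 2 is the reddest column over complement and receptor rows, and Lgals3 and Lyz2 differ among the KO-labelled libraries.

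The 7 complement genes had a median log2 fold change of 0.41, all of them above 0. It was the highest of the role lists, but without KO 2 it was 0.27, level with that of the ITAM and Fc receptor genes, and without WT 1 it was 0.39 with 6 of 7 above 0. The chains of C1q are encoded side by side on chromosome 4 of mm10, in a stretch of 18.7 kb from 136880126 to 136898844 that runs from C1qb through C1qc to C1qa. C1qa had 52.4, 51.0 and 55.2 CPM in WT and 74.9, 88.9 and 55.9 CPM in KO-labelled libraries. C1qb had 49.5, 49.2 and 51.0 CPM in WT and 66.3, 79.4 and 53.6 CPM in KO-labelled libraries. C1qc had 42.8, 45.6 and 46.8 CPM in WT and 62.4, 70.7 and 52.4 CPM in KO-labelled libraries. In all 3 genes the WT libraries were close together, KO 2 was the highest and KO 3 the lowest of the KO-labelled libraries. The groups did not overlap, though KO 3 nearly touched WT 3 for C1qa. Their log2 fold changes were 0.47 (SE 0.17) for C1qa, 0.41 (SE 0.15) for C1qb and 0.46 (SE 0.13) for C1qc, with adjusted p of 0.494, 0.491 and 0.362 in edgeR. Without KO 2 they were 0.31, 0.27 and 0.35. Leaving aside the fit of KO 1 alone, whose spread came from WT only, C1qc was at an unadjusted p under 0.05 in each of 16 alternatives, and C1qa and C1qb in 10 each.

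Per length, the chains stood at like levels: the mean FPKM (fragments scaled to transcript length and library total) over the 6 libraries was 59.3 for C1qa, 55.8 for C1qb and 51.9 for C1qc. That order held in each library, from 47.0, 46.2 and 43.4 FPKM in WT 2 to 83.9, 76.5 and 68.9 FPKM in KO 2. Among the 48 members only Apoe (1573 FPKM), Ctsb (337 FPKM) and Ctsd (255 FPKM), which many brain cells express, were above C1qa, and Ctss followed C1qb at 54.4 FPKM.

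The receptors of complement fragments were far less abundant. C3ar1, the receptor of C3a, had 1.68, 3.36 and 3.08 CPM in WT and 3.89, 4.55 and 4.23 CPM in KO-labelled libraries. The groups did not overlap, with WT 1 well below the rest, and the log2 fold change of 0.64 (SE 0.30) had an adjusted p of 0.584 in edgeR. It was 0.39 without WT 1. C5ar1, the receptor of C5a, had 0.920, 1.20 and 1.39 CPM in WT and 1.65, 1.56 and 0.881 CPM in KO-labelled libraries, so KO 3 lay below every WT library (log2 fold change 0.22, SE 0.36). Itgb2 and Itgam encode the chains of complement receptor 3, which takes up C3-tagged material. Itgb2 had 7.20, 5.82 and 6.61 CPM in WT and 7.36, 9.62 and 7.40 CPM in KO-labelled libraries, all of these above WT, if narrowly (log2 fold change 0.31, SE 0.18). Itgam, between 21.7 and 32.8 CPM, overlapped between the groups (log2 fold change 0.11, SE 0.17).

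The other complement genes lay on both sides of 0. Of 34 listed, 26 were tested, 12 with a log2 fold change above 0 (46.2%, against 53.4% of all genes) and 14 below. The median was -0.05, and 0 passed in edgeR. At an unadjusted p under 0.05, 1 was higher (3.85%, against 2.68%) and 4 were lower (15.4%, against 6.39%). Cd55, which dissolves complement convertases on the cell surface, had 25.4, 19.9 and 15.6 CPM in WT and 8.54, 12.9 and 11.98 CPM in KO-labelled libraries (log2 fold change -0.86, SE 0.23, adjusted p = 0.325 in edgeR). C1s1, a protease of the C1 complex, had 2.60, 2.46 and 1.57 CPM in WT and 0.942, 1.09 and 1.06 CPM in KO-labelled libraries (log2 fold change -1.09, SE 0.30, adjusted p = 0.349 in edgeR). In both genes every KO-labelled library lay below every WT library, and WT 3 was the lowest of the WT libraries, as it was for the choroid plexus sum. The remaining genes of the list at an unadjusted p under 0.05, chosen after their values were seen, were C3, Cd59a and Cfp. C3, the central component of the cascade, had a log2 fold change of -1.66 (SE 0.49), with WT 1 at 14.02 CPM, WT 2 at 3.90, WT 3 at 6.61 and the KO-labelled libraries at 2.18 to 3.34 CPM. Cd59a, which blocks the membrane attack complex, had 45.9, 72.9 and 29.5 CPM in WT and 22.4, 26.7 and 17.4 CPM in KO-labelled libraries, without overlap (log2 fold change -1.16, SE 0.34). For C3 and Cd59a DESeq2 gave an adjusted p of 0.0493 and 0.0397, and edgeR 0.391 and 0.396. Cfp, properdin, which stabilises the alternative convertase, was the gene of the list on the higher side, at 12.6, 11.7 and 12.5 CPM in WT against 15.9, 16.8 and 14.4 CPM (log2 fold change 0.35, SE 0.12). The part of choroid plexus content in these lower values was not tested.

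**Figure D3:**
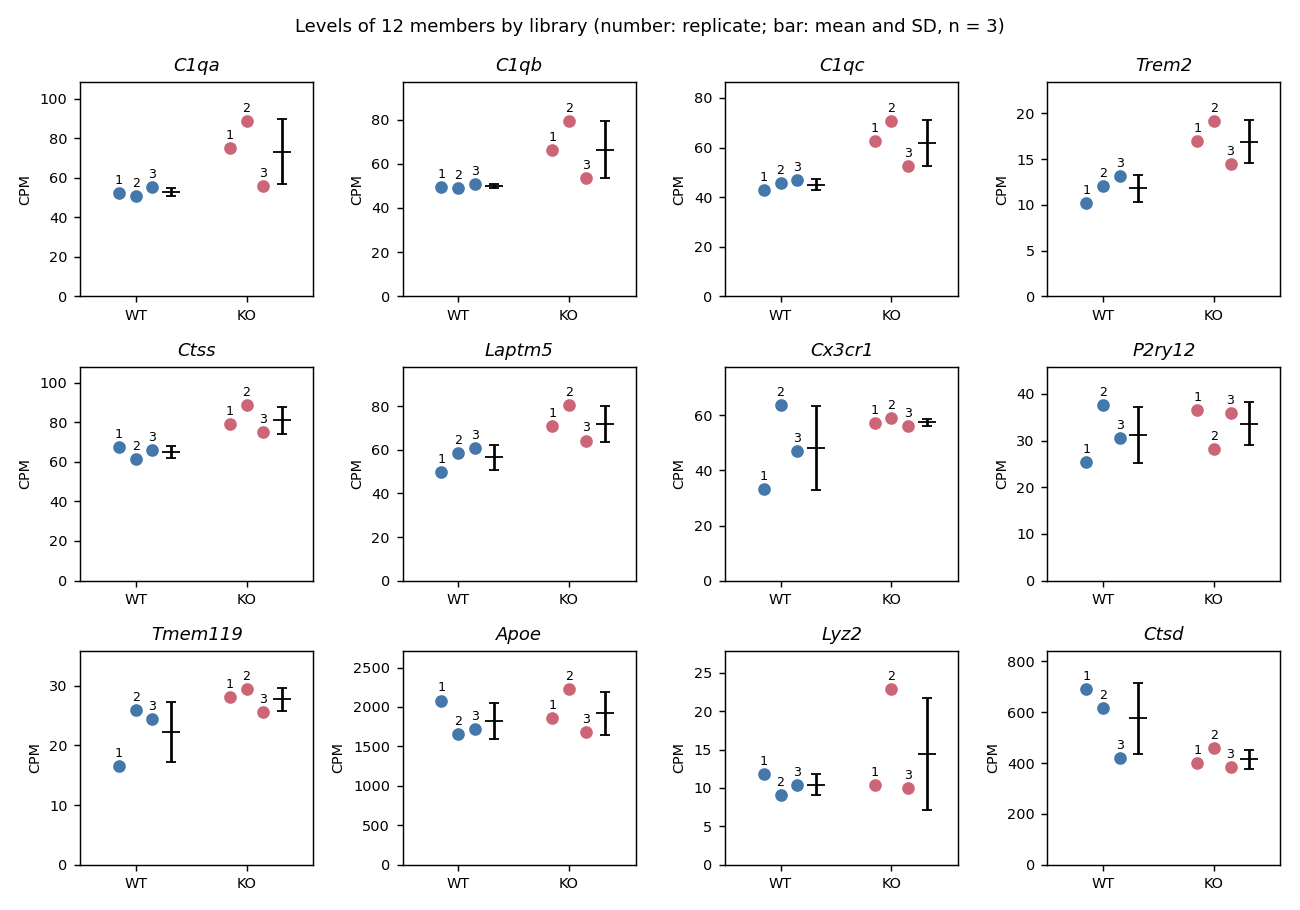
Levels in CPM of 12 members, 1 numbered point per library, with the mean and SD of each group (n = 3) beside the points and axes that start at 0. In the C1q genes, Trem2, Ctss and Laptm5 the KO-labelled libraries lie above WT; in Cx3cr1, P2ry12 and Tmem119 WT 1 is the lowest point; Lyz2 is high in KO 2 alone.

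The transcription factor PU.1, encoded by the member Spi1, binds purine-rich sites with a GGAA core and is required for microglia. Windows from 250 bases before to 30 after each RefSeq start (GRCm38.p6) were searched on both strands; they were at hand for 38 of the 48 members, with 47 windows in all. The letters AGGAAGT were in 15 of the 47 windows (31.9%) and in 8.65% of all 32851 windows. The letters GAGGAA were in 25 (53.2%), against 26% of all windows, and the joined form GAGGAAGT, which contains both, was in 5 (10.6%, against 2.82%). The ETS-IRF composite, GGAA and GAAA with 2 bases between, can overlap these and was in 2 (4.26%, against 2.55%), both of Clec7a. Windows were counted, not genes, so a gene with several starts can count more than once. The AP-1 form TGAGTCA was in 3 (6.38%, against 4.94%), and the interferon-type motif, TTTC and TTTC with 2 bases between, was in 2 (4.26%, against 3.28%). These shares describe letters in a window, not binding. The 4 windows shown are of members whose groups did not overlap and that hold GAGGAA or AGGAAGT. Fcrls and Laptm5 met this too and are not shown. The groups of C3ar1 did not overlap either, but no GAGGAA or AGGAAGT was found for it. The sequences run 5′ to 3′ on the gene's strand, with every GAGGAA or AGGAAGT on either strand in capitals.

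C1qb, chr4:136886171-136886450, minus strand: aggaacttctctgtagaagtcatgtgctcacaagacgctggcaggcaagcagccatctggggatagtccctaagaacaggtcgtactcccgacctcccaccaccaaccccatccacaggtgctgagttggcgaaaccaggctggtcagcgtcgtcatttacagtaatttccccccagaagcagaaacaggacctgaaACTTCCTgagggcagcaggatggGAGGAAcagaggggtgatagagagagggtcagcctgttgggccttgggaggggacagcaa
C1qc, chr4:136892885-136893164, minus strand: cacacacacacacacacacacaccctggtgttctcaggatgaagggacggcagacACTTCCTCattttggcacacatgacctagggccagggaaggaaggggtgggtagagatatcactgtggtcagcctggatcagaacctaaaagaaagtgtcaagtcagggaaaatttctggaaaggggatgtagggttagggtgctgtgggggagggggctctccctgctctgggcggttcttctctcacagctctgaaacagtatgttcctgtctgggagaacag
Ctss, chr3:95526536-95526815, plus strand: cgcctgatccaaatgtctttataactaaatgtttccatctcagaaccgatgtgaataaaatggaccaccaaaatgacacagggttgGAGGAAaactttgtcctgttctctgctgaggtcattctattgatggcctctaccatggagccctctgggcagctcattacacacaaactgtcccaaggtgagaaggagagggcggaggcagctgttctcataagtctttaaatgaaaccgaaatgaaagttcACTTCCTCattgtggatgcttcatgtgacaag
Trem2, chr17:48346151-48346430, plus strand: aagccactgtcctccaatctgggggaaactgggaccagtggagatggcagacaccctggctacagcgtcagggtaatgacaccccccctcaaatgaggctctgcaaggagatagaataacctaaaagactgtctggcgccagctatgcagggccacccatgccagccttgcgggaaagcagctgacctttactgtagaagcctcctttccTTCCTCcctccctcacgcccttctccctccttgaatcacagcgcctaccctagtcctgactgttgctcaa

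The capitals nearest to a start were those of Ctss, where the reverse complement ACTTCCTC began 2 bases before it and ran across it, and another run began 164 bases before it. In C1qb the runs began 53 and 30 bases before the start, in Trem2 40 bases and in C1qc 195 bases before it. The level of Spi1 itself differed little between the groups, at 4.55, 5.10 and 3.89 CPM in WT and 5.66, 5.82 and 3.93 CPM in KO-labelled libraries (log2 fold change 0.19, SE 0.23).

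The 6 genes of ITAM and Fc receptor signalling, receptors, adaptors and inhibitory partners, had a median log2 fold change of 0.33, all above 0. Trem2, which binds lipids and apolipoproteins, had 10.2, 12.1 and 13.1 CPM in WT and 17.02, 19.2 and 14.5 CPM in KO-labelled libraries. The groups did not overlap, and the log2 fold change was 0.52 (SE 0.16, adjusted p = 0.402 in edgeR). It was 0.42 without KO 2, 0.425 without WT 1 and 0.53 with KO 1 alone. Leaving aside that fit of KO 1 alone, Trem2 was at an unadjusted p under 0.05 in each of the 16 other alternatives. Tyrobp, its adaptor, had 12.5, 9.72 and 12.8 CPM in WT and 13.8, 17.1 and 12.4 CPM in KO-labelled libraries, so that KO 3 lay within the WT range (log2 fold change 0.31, SE 0.18). Fcgr3, a receptor for immunoglobulin G, had 12.6, 13.4 and 16.2 CPM in WT and 20.3, 23.3 and 14.8 CPM in KO-labelled libraries, with KO 3 below WT 3 (log2 fold change 0.47, SE 0.19, adjusted p = 0.545 in edgeR). Fcer1g, the Fc receptor gamma chain, had 11.7, 13.4 and 14.04 CPM in WT and 17.8, 18.8 and 13.5 CPM in KO-labelled libraries (log2 fold change 0.35, SE 0.16). In these receptors and adaptors KO 3 was the library nearest to WT. Of the inhibitory genes of this signal, Inpp5d, a lipid phosphatase, had a log2 fold change of 0.22 (SE 0.23). It ran from 0.0043 without WT 1 to 0.40 without WT 2. Cd33, an inhibitory sialic acid receptor, was at 0.02 (SE 0.23). Of 16 further genes of the pathway, 13 had a log2 fold change above 0 (81.25%, against 53.4% of all genes). At an unadjusted p under 0.05 in edgeR there were 0 (against 2.68% of all genes higher and 6.39% lower). Btk, a kinase of this signal, had a log2 fold change of 0.68 (SE 0.35), from 0.758, 0.720 and 1.102 CPM in WT and 1.83, 1.15 and 1.17 CPM in KO-labelled libraries, without overlap but at a low level.

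Among the lysosomal and phagocytic genes the proteases diverged. Ctss, cathepsin S of myeloid cells, had 67.2, 61.6 and 65.8 CPM in WT and 78.9, 88.6 and 75.2 CPM in KO-labelled libraries. The groups did not overlap, and the log2 fold change was 0.32 (SE 0.10, adjusted p = 0.423 in edgeR). Ctsd, cathepsin D of lysosomes in most cell types, had 689.5, 616 and 421 CPM in WT and 400.3, 458 and 386 CPM in KO-labelled libraries. It was the only member that was lower at an unadjusted p under 0.05 (log2 fold change -0.47, SE 0.20, adjusted p = 0.544 in edgeR), and WT 3 lay below KO 2. It was highest in WT 1 and lowest of the WT libraries in WT 3, as was the choroid plexus sum of 23920, 18630 and 5676 CPM; the part of that content was not tested. Cd68, a lysosomal membrane protein of macrophages, had 10.9, 18.9 and 13.3 CPM in WT and 17.2, 21.5 and 16.3 CPM in KO-labelled libraries (log2 fold change 0.35, SE 0.22), and Ctsb was at 0.12 (SE 0.11). Mertk, a receptor for apoptotic cells that astrocytes also carry, had 38.7, 43.5 and 56.4 CPM in WT and 43.1, 43.2 and 45.1 CPM in KO-labelled libraries (log2 fold change -0.08, SE 0.15). Of 16 further lysosomal genes 6 were above 0 (37.5%, against 53.4% of all genes), and 3 were lower (18.8%, against 6.39%) and 0 higher at an unadjusted p under 0.05. Lamp2, a lysosomal membrane protein, had 170.7, 151 and 102 CPM in WT and 91.2, 76.2 and 78.6 CPM in KO-labelled libraries (log2 fold change -0.79, SE 0.20, adjusted p = 0.289 in edgeR and 0.0273 in DESeq2). Ctsl, another cathepsin, had 125, 98.6 and 80.8 CPM in WT and 72.6, 81.9 and 71.8 CPM in KO-labelled libraries (log2 fold change -0.43, SE 0.17). WT 3 was the lowest WT library in both.

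The 15 homeostatic genes had a median log2 fold change of 0.26, 11 of them above 0. Without WT 1 the median was 0.076, with 9 above 0 and 0 at an unadjusted p under 0.05. Their mean log2(CPM + 1) differed by 0.21 between the groups, with an SD of 0.23 among the WT libraries and 0.05 among those labelled KO. Cx3cr1, the fractalkine receptor, had 33.2, 63.7 and 47.2 CPM in WT and 57.4, 58.9 and 56.1 CPM in KO-labelled libraries (log2 fold change 0.26, SE 0.22). P2ry12, the purine receptor of surveying processes, had 25.5, 37.6 and 30.5 CPM in WT and 36.6, 28.3 and 35.9 CPM in KO-labelled libraries (log2 fold change 0.11, SE 0.18). Tmem119, a membrane protein used to mark microglia, had 16.5, 25.9 and 24.4 CPM in WT and 28.0, 29.4 and 25.7 CPM in KO-labelled libraries (log2 fold change 0.32, SE 0.18). In each of these WT 1 was the lowest library and the groups overlapped. Without WT 1 their log2 fold changes were 0.05, -0.02 and 0.14. Csf1r, the receptor microglia need to survive, had 80.4, 108 and 99.3 CPM in WT and 108, 131 and 106 CPM in KO-labelled libraries (log2 fold change 0.26, SE 0.15, and 0.15 without WT 1). Selplg, a selectin ligand, had 26.3, 49.7 and 40.5 CPM in WT and 60.2, 59.2 and 49.1 CPM in KO-labelled libraries (log2 fold change 0.53, SE 0.23, and 0.32 without WT 1). WT 1 was again the lowest library for both, and WT 2 reached the lower KO-labelled libraries, so the groups overlapped.

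Only Slc2a5 and Olfml3 of this list were at an unadjusted p under 0.05 in edgeR. Slc2a5, a fructose transporter that microglia express in the brain, had 5.36, 6.24 and 5.16 CPM in WT and 6.72, 12.96 and 9.16 CPM in KO-labelled libraries. It had the largest log2 fold change of the 46 members, 0.78 (SE 0.26, adjusted p = 0.446 in edgeR), and 0.51 without KO 2. Olfml3, a secreted olfactomedin-like protein, had 23.2, 27.9 and 25.3 CPM in WT and 33.0, 36.1 and 27.8 CPM in KO-labelled libraries, with KO 3 just below WT 2 (log2 fold change 0.34, SE 0.13, adjusted p = 0.519 in edgeR). Fcrls, an Fc receptor-like scavenger protein of microglia, had 14.1, 24.8 and 24.9 CPM in WT and 27.7, 34.4 and 25.3 CPM in KO-labelled libraries (log2 fold change 0.46, SE 0.24). Slc2a5 and Fcrls were the homeostatic genes whose groups did not overlap. The 4 homeostatic genes with a value below 0 overlapped between the groups. Tgfbr1, a TGF-β receptor, was at -0.21 (SE 0.12) with 30.04, 35.8 and 32.5 CPM in WT and 30.4, 25.3 and 29.4 CPM in KO-labelled libraries, and lay between -0.27 and -0.11 in the 17 alternatives. Itgb5, an integrin chain, was at -0.09 (SE 0.13), with 72.9, 68.9 and 60.3 CPM in WT and 62.9, 71.2 and 56.3 CPM in KO-labelled libraries. Hpgds, a prostaglandin D synthase, was at -0.07 (SE 0.16), with 6.39, 7.74 and 8.12 CPM in WT and 7.42, 6.45 and 7.28 CPM in KO-labelled libraries. Sall1, a transcription factor of microglial identity that neural progenitors also express, was at -0.05 (SE 0.12), with 36.4, 41.7 and 42.8 CPM in WT and 44.1, 35.7 and 36.7 CPM in KO-labelled libraries.

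Further homeostatic genes and the signals that maintain microglia gave a mixed picture. Of 21 other homeostatic genes 14 had a log2 fold change above 0 (66.7%, against 53.4% of all genes). At an unadjusted p under 0.05 in edgeR, 0 were higher (against 2.68%) and 2 were lower (9.52%, against 6.39%). Those were Ltc4s, leukotriene C4 synthase, with 19.4, 18.8 and 5.16 CPM in WT and 3.24, 3.398 and 3.41 CPM in KO-labelled libraries (log2 fold change -2.11, SE 0.49, adjusted p = 0.280 in edgeR and 0.00128 in DESeq2), and Cd164, a sialomucin, with 156, 134 and 100.5 CPM in WT and 91.1, 73.0 and 82.2 CPM in KO-labelled libraries (log2 fold change -0.67, SE 0.18). Without WT 3, the WT library with least choroid plexus signal, edgeR called 137 of 15301 genes, Ltc4s among them (adjusted p = 0.00428). WT 3 was also the lowest WT library for Ltc4s and Cd164, and the part of choroid plexus content in their values was not tested. Of 15 genes of TGF-β and survival signalling 14 were tested, and 8 were above 0 (57.1%, against 53.4% of all genes). Nrros, which anchors latent TGF-β1 on microglia, had 5.25, 6.66 and 6.38 CPM in WT and 10.7, 12.4 and 9.34 CPM in KO-labelled libraries. The groups were well separated, with a log2 fold change of 0.83 (SE 0.18), an adjusted p of 0.215 in edgeR and 0.0273 in DESeq2, and 0.71 to 0.73 without KO 2 or WT 1. Tgfb2, a TGF-β ligand, had 78.7, 49.3 and 35.7 CPM in WT and 19.5, 19.0 and 25.1 CPM in KO-labelled libraries (log2 fold change -1.36, SE 0.30, adjusted p = 0.245 in edgeR and 0.00123 in DESeq2). Among the WT libraries WT 1 was highest for Tgfb2 and lowest for Nrros, and it had the highest choroid plexus sum; the part of that content was not tested for either gene. Over the 6 lists of further genes together, 107 of 121 were tested and 0 passed in edgeR. DESeq2, which called 1.86% of all genes, called 6 of them: Nrros on the higher side, and Tgfb2, Ltc4s, Lamp2, C3 and Cd59a on the lower.

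**Figure D4:**
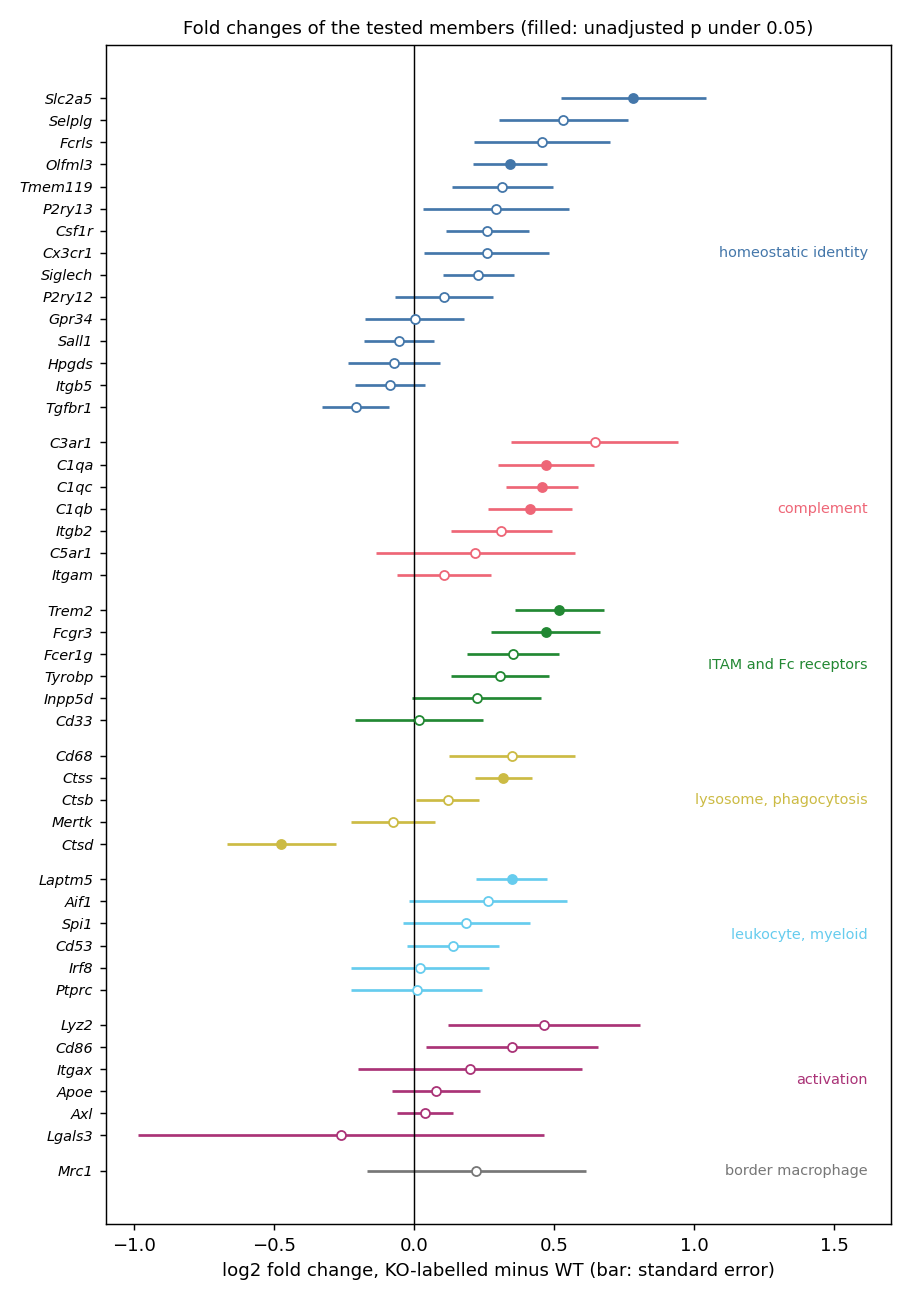
Log2 fold change (KO-labelled minus WT) with its standard error for the 46 tested members, ordered by role; filled points are those at an unadjusted p under 0.05 in edgeR. No member passed the adjusted threshold, 39 points lie above 0, and the longest bar is that of Lgals3.

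The 6 activation genes tested had a median log2 fold change of 0.14, with 5 above 0, and the groups overlapped in all 6. Apoe, the lipid carrier that astrocytes and activated microglia make, had 2082, 1655 and 1726 CPM in WT and 1856, 2222 and 1685 CPM in KO-labelled libraries (log2 fold change 0.08, SE 0.16). Lyz2, lysozyme of macrophages and monocytes, had 11.9, 9.06 and 10.4 CPM in WT and 10.4, 22.8 and 9.98 CPM in KO-labelled libraries. Lgals3, a galectin of activated macrophages, had 5.36, 5.22 and 2.90 CPM in WT and 1.83, 8.24 and 1.17 CPM in KO-labelled libraries. For Lyz2 and Lgals3 KO 2 was the highest of the 6 libraries, with KO 1 and KO 3 within or below WT: the log2 fold changes of 0.46 (SE 0.34) and -0.26 (SE 0.73) became -0.04 and -1.58 without KO 2. That library also held more of other myeloid markers. Plac8, a monocyte gene, had 139 counts there and 1 to 3 in the other libraries, S100a9 of neutrophils 16 against 0 to 1, and Cbr2 of border macrophages 10.9 CPM against 0.812 to 1.53 CPM. The summed level of 10 border macrophage markers was 22.0, 30.2 and 35.3 CPM in WT and 35.4, 60.0 and 34.9 CPM in KO-labelled libraries, so that KO 2 was the highest and KO 3 lay within the WT range. Stab1, a scavenger receptor among these markers, had 13.04, 17.3 and 19.3 CPM in WT and 21.3, 28.8 and 19.8 CPM in KO-labelled libraries, and Stab1 and Cbr2 were above WT in every KO-labelled library. Mrc1, a mannose receptor and another of these markers, had 6.22 CPM in KO 2 and 2.76, 2.82, 5.45, 3.06 and 3.58 CPM in WT 1 to 3, KO 1 and KO 3. The part of these cells in the members' values was not tested.

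Of the activation genes, Cst7, Clec7a and Itgax were scarce in every library. Cst7, a cystatin, had 5, 6 and 5 counts in WT and 4, 6 and 8 counts in KO-labelled libraries. Clec7a, the receptor dectin-1, had 8, 7 and 4 counts in WT and 7, 20 and 3 counts in KO-labelled libraries, KO 2 again being the highest. Itgax, the integrin chain CD11c, had 0.433, 0.840 and 0.870 CPM in WT and 0.942, 0.634 and 0.881 CPM in KO-labelled libraries (log2 fold change 0.20, SE 0.40). These 3 genes also had the lowest mean FPKM of the 48 members, 0.342 for Cst7, 0.220 for Clec7a and 0.187 for Itgax. Cd86, a co-stimulatory ligand, had 1.73, 2.04 and 2.84 CPM in WT and 3.42, 2.07 and 2.94 CPM in KO-labelled libraries (log2 fold change 0.35, SE 0.31), and Axl, a receptor kinase that astrocytes share, was at 0.04 (SE 0.10). Of 20 further activation genes 15 were tested, with 5 above 0 (33.3%, against 53.4% of all genes) and 10 below, and 0 passed. At an unadjusted p under 0.05 in edgeR, 0 were higher (against 2.68%) and 2 were lower (13.3%, against 6.39%). The pair with the lowest p, both on the lower side, was Lgals1 and Cd63. Lgals1, a galectin, had 29.5, 18.9 and 13.5 CPM in WT and 11.7, 14 and 7.22 CPM in KO-labelled libraries (log2 fold change -0.91, SE 0.35). Cd63, a tetraspanin of late endosomes, had 122, 81.5 and 66.4 CPM in WT and 65.2, 61.8 and 56.3 CPM in KO-labelled libraries (log2 fold change -0.56, SE 0.22). In both WT 1 was highest and WT 3 was the lowest WT library, as in the choroid plexus sum, whose part was not tested.

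The 6 leukocyte and myeloid genes had a median log2 fold change of 0.16, all above 0. The median was 0.05 without WT 1 and 0.085 without KO 2, and 5 of 6 were above 0 in DESeq2 and limma-voom and 4 of 6 without WT 3 or KO 2. Laptm5, a lysosomal transmembrane protein of blood lineages, had 50.0, 58.7 and 60.9 CPM in WT and 71.0, 80.5 and 64.3 CPM in KO-labelled libraries, without overlap (log2 fold change 0.35, SE 0.13, adjusted p = 0.494 in edgeR). Aif1, which encodes IBA1, had 2.27, 4.56 and 3.60 CPM in WT and 4.24, 4.09 and 4.17 CPM in KO-labelled libraries (log2 fold change 0.26, SE 0.28), with WT 1 lowest and WT 2 highest of all. Cd53, a tetraspanin of leukocytes, had 7.36, 7.44 and 9.57 CPM in WT and 8.54, 9.68 and 8.63 CPM in KO-labelled libraries (log2 fold change 0.14, SE 0.16). Ptprc, which encodes CD45, was at 0.01 (SE 0.23) and Irf8, a transcription factor of myeloid cells, at 0.02 (SE 0.25). The values of Ptprc and Irf8 differed by less than the spread between libraries.

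Homeostatic genes were then set against activation genes within each library, as the mean log2(CPM + 1) of the 15 homeostatic genes minus that of the 6 tested activation genes. This difference was 0.17, 0.64 and 0.45 in the WT libraries and 0.67, 0.32 and 0.74 in those labelled KO. The means were 0.42 ± 0.23 in WT and 0.57 ± 0.22 in KO-labelled libraries (SD, n = 3), a difference of 0.16 that is smaller than either spread, and the groups overlapped. The lowest library in WT was WT 1, whose homeostatic mean of 4.37 was under the 4.64 to 4.86 of the others. The lowest among the KO-labelled libraries was KO 2, whose activation mean of 4.54 was above the 4.02 to 4.20 of the others. Without WT 1 the difference was 0.03 and without KO 2 it was 0.28. The mean of the 7 complement genes was 3.82, 4.0 and 4.03 in the WT libraries and 4.28, 4.47 and 4.09 in those labelled KO, without overlap. That of the 6 ITAM and Fc receptor genes did not overlap either, at 3.41 to 3.69 in WT and 3.72 to 4.01 in KO-labelled libraries. The mean over all 46 tested members did overlap, at 4.16 to 4.42 in WT and 4.375 to 4.64 in KO-labelled libraries. So did the means of the homeostatic, lysosomal, leukocyte and activation lists.

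**Figure D5:**
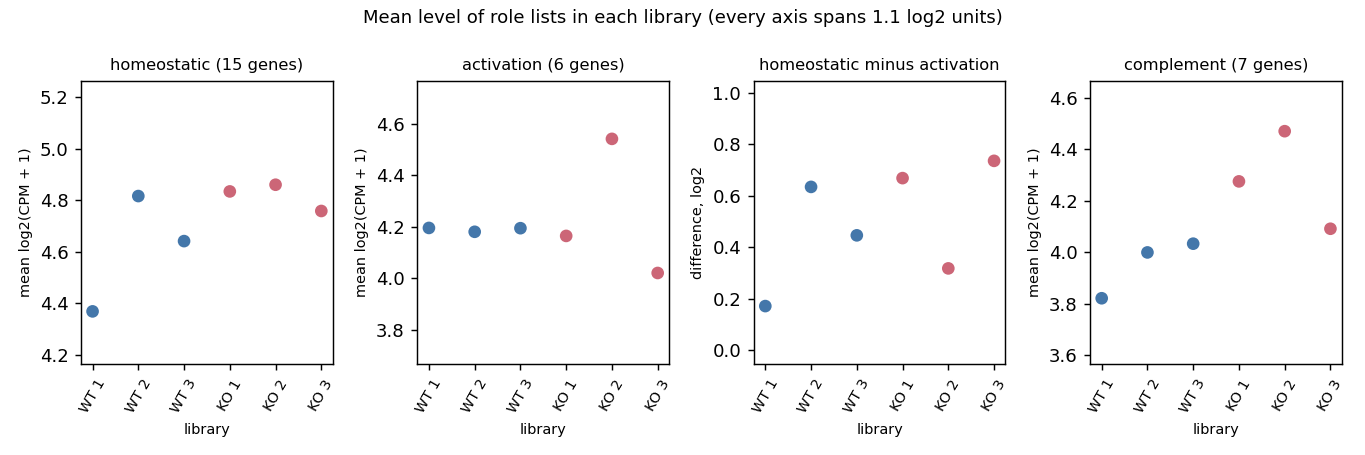
Mean log2(CPM + 1) of the homeostatic, activation and complement genes and the homeostatic minus activation difference, 1 point per library; every axis spans the same range. The difference overlaps between WT (0.17 to 0.64) and KO-labelled libraries (0.32 to 0.74), while the complement means do not overlap.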

How the data were processed

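The deposited table gives, per the file headers, estimated counts and FPKM for 61481 RefSeq transcripts in 6 libraries. From the values, the authors' FPKM follow from their counts, transcript length and library total. The submitters' processing notes name build mm10 and limma 3.40.6. Not given in the sources used here are aligner, counting tool and annotation release. For each gene the estimated counts of its transcripts were summed and then rounded. RefSeq (GRCm38.p6) gave symbols for 18489 genes; the 125 others held 0.104% to 0.140% of counts. Libraries of a group differed beyond sampling noise (chi-square per degree of freedom 22.6 to 99.5).

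All genes that passed filterByExpr (minimum count 10) were fitted in edgeR 4.0.16, run in R 4.3.3 (scaling by TMM, robust quasi-likelihood F test, two-sided, group as the only term, Benjamini-Hochberg threshold 0.05). CPM are TMM-scaled. Values are log2 fold changes with standard errors (SE). In edgeR the SE was derived from the test, as the absolute log2 fold change divided by the square root of F. Levels of different genes were compared as FPKM summed over transcripts. With 3 libraries against 3, a permutation test of one gene cannot go below an exact p of 0.1. DESeq2 1.42.0, limma-voom and limma on log2(FPKM + 0.1) (limma 3.58.1), other scalings and filters, the replicate number as a block, KO 1 alone and each library left out were the alternatives. The procedure was tested on simulated data.

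The members and all lists were chosen with earlier results of these data known. Values in every library are given for the C1q chains, C3ar1, C5ar1, the 3 members with the lowest p of each role, the best-known markers, members below 0 and those not tested, and from each list of further genes for up to 2 with the lowest p, of which 1 is not reported here; some other members are given beside their partners. Promoter windows are from RefSeq, build GRCm38.p6.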

Additional observations from a re-analysis of the deposited data

How the results depend on the processing

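No member passed the adjusted threshold in any of the 17 alternatives. Of 58 genes followed, members and genes of the further lists, 44 kept their direction throughout. The 14 that did not were all members. The genes of the further lists were followed mostly for their low p. Not every tested member was followed, and Gpr34 (log2 fold change 0.0017) was among those left out. The median of the members lay between 0.14 and 0.32 with a library left out, and the homeostatic minus activation difference between 0.03 and 0.28. The number of members higher at an unadjusted p under 0.05 was 9 (against 2.68% of all genes). It was 3 to 10 with a library left out (against 0.87% to 4.33%). The number lower, 1, was 0 with limma-voom, upper quartile scaling and limma on FPKM, and 0 to 1 with a library left out. The fit of KO 1 alone, whose spread came from WT only, is left out of both numbers. The median of the members was 0.26 in that fit. Members with every KO-labelled library above every WT library, 10, were 24 with KO 1 alone (against 27.8% of all genes). With a library left out they were 10 to 21 (against 10.7% to 15.8%), fewer libraries overlapping less by construction. Members wholly below WT were not counted in the alternatives. The 0 further pathway genes past the threshold became 6 in DESeq2 and 0 to 1 with a library left out. That 1 came without WT 3, where edgeR called 137 of 15301 genes.

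Replicate numbers did not pair the libraries: deviations of same-numbered libraries correlated at -0.16, -0.07 and -0.04. With the replicate number as a block, 5 members were higher and 0 lower at an unadjusted p under 0.05, against 1.21% of all genes higher.

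With a library left out, log2 fold changes that turned sign ran from -0.040 (without KO 2) to 0.18 for Apoe, from -0.036 (without KO 2) to 0.67 for Lyz2, from -0.15 (without KO 2) to 0.62 for Mrc1, from -0.16 to 0.0042 (without KO 2) for Sall1, from -0.063 (without WT 1) to 0.37 for Itgax, from -0.020 (without WT 1) to 0.25 for P2ry12, from -0.19 to 0.092 (without WT 3) for Mertk, from -0.023 (without WT 1) to 0.11 for Axl, from -0.10 (without WT 1) to 0.23 for Cd33, from -0.11 (without WT 1) to 0.28 for Irf8, from -0.047 (without WT 1) to 0.23 for Itgam, from -0.17 (without KO 2) to 0.13 for Ptprc, and from -1.58 to 0.16 (without KO 3, and 0.067 without KO 1) for Lgals3. With KO 1 alone they were 0.0030 for Hpgds, -0.0079 for Lyz2, -0.26 for Mrc1, 0.13 for Sall1, -0.090 for Cd33 and -0.27 for Ptprc. Ptprc was also at -0.00038 in DESeq2, -0.0060 in limma-voom, -0.00034 with DESeq2-type size factors, -0.0075 with the replicate block and -0.038 with limma on FPKM. The cause of these reversals was not tested.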

Other observations

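Transcript estimates within some members differed from the gene sums. In genes with several transcripts, 62 member transcripts had a mean of at least 20 estimated counts. The KO-labelled libraries lay above WT in 10 of them (16.1%, against 6.42% of 31981 such transcripts of all genes) and below WT in 4 (6.45%, against 7.32%). Those 4, chosen after their values were seen, belong to Apoe, Csf1r, Mertk and P2ry12, of which Apoe, Csf1r and P2ry12 had gene sums slightly higher in KO-labelled libraries. A minor Apoe transcript had 49.4, 39.2 and 32.3 CPM in WT and 16.5, 11.2 and 6.84 CPM in KO-labelled libraries. It held 2.21% of the gene's counts in WT and 0.598% in KO-labelled libraries. A Csf1r transcript had 9.46, 5.48 and 7.49 CPM in WT and 2.30, 1.95 and 2.77 CPM in KO-labelled libraries, or 7.90% and 2.03% of the gene. A P2ry12 transcript held 32.4% of the gene in WT and 19.1% in KO-labelled libraries, and a Mertk transcript 28.3% and 12.6%. Of 2 Itgam transcripts, 1 was listed at 0 in WT 1 and at 173 to 436 counts elsewhere. These are estimated splits of reads between overlapping transcripts, whose own error the table does not give, and no test was run on them.

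The mean of the C1q genes minus that of the homeostatic genes, on the log2(CPM + 1) scale, was 1.25, 0.81 and 1.06 in the WT libraries and 1.27, 1.47 and 1.02 in those labelled KO. The groups overlapped, and the difference of 0.21 is smaller than the spread in either group.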
